A study of Bos taurus with 4 samples.

Results

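The NR4A, EGR and IER genes are immediate early genes, switched on within minutes of a signal at the cell surface and without new protein synthesis. The members were found by gene symbol, with no measured value in the rule, and the families were picked with earlier results of these data known. Of the 10 symbols looked for (NR4A1, NR4A2, NR4A3, EGR1, EGR2, EGR3, EGR4, IER2, IER3 and IER5), 6 had at least 1 named probe set on the array, out of 9155 named genes in all. These were 2 NR4A genes, 2 EGR genes and 2 IER genes, measured by 12 of the 24016 probe sets tested. NR4A3, EGR2, EGR3 and IER5 were not analysed here.

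The cells were bovine gamma delta T cells, lymphocytes that are abundant in the blood of young ruminants, sorted from peripheral blood to a stated purity of over 97%. The APP group received an aqueous apple polyphenol extract at 42.2 µg/ml for 4 h, and the PBS group received the buffer alone for the same time. Both groups came from the same 2 calves, numbered 301 and 303, and all cells had rested overnight before stimulation. The protocols give an age of 1 to 6 months, while the design text speaks of neonatal calves. Each group therefore had 2 arrays, 1 per calf. The separate cultures behind each array are not described, so the spread between calves also holds whatever varied between cultures.

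NR4A proteins are orphan nuclear receptors that bind DNA without a known natural hormone and are governed mainly by how much of them is made. In mouse T cells NR4A1 is widely used as a readout of antigen receptor signalling. EGR proteins are zinc finger transcription factors induced through the MAP kinase ERK and serum response factor, and in T cells they act on cytokine genes and on genes that restrain activation. The IER genes encode small proteins of varied function. In many cells such transcripts rise and fall within hours. The arrays here hold 1 time point, so the course of the response was not measured.

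Values were deposited as ratios of each probe set's signal to its own median over the 4 arrays. A ratio of 1 is thus that probe set's middle value. The ratios show how a gene differs between arrays and hold no information on which gene is expressed more than another. A change of a gene near background is compressed on this scale, and it is unknown which genes these were. In this RNA from whole cell populations, fewer cells making a transcript and less transcript per cell cannot be told apart. A gene was said to have risen or fallen where limma, fitted with calf as the blocking factor, gave an adjusted p under 0.05 over all genes.

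After APP, 5 of the 6 genes rose, none fell and EGR4 did not pass the test, although the rise of IER2 became a fall when the arrays were scaled to the hybridization controls. At an unadjusted p under 0.05 the count was again 5 rises and 0 falls. Over all 9155 genes, 23% rose and 29.7% fell at an adjusted p under 0.05, and the shares at an unadjusted one were not counted. The median change of the 6 genes was 1.36 on the log2 scale, against 0.01 over all genes. Both APP arrays lay above both PBS arrays for all 6 genes, as they did for 36.6% of all genes. The rise was at least 2-fold in both calves for 4 of the 6 (NR4A1, NR4A2, EGR1 and IER3), against 3.5% of all genes.

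**Figure D1:**
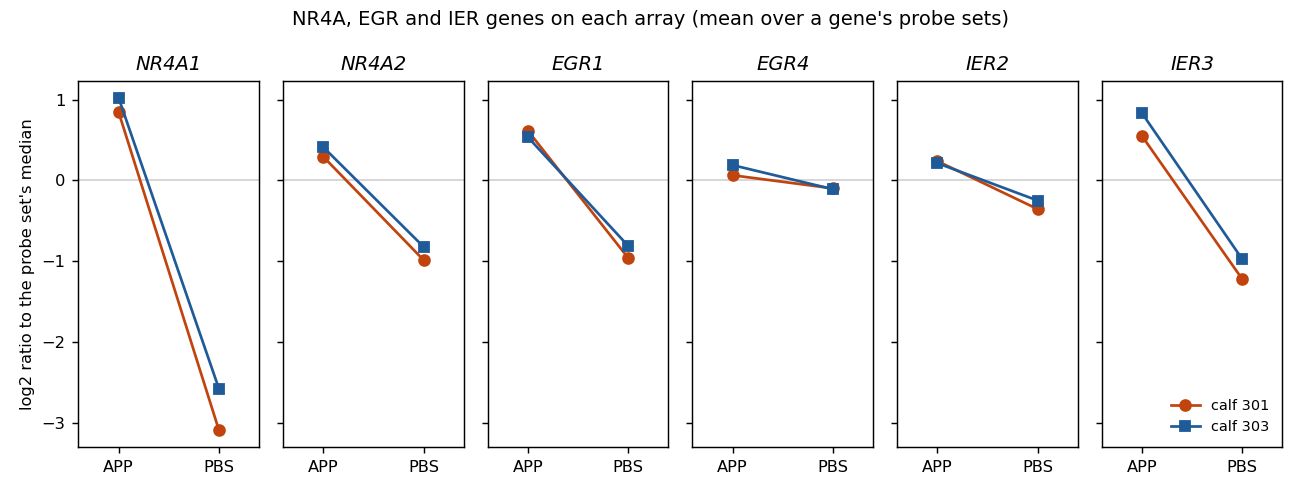
Log2 ratio to the probe set's median (vertical axis) for each of the 6 genes on the 4 arrays, averaged over the probe sets of a gene. Points are single arrays and lines join the APP and PBS arrays of 1 calf. NR4A1 has the widest gap, with its APP points above its PBS points, and those of EGR4 lie close together, at 0.06 and 0.19 with APP and at -0.10 and -0.11 with PBS.

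Among the nuclear receptors, NR4A1 had ratios of 1.80 and 2.03 on the APP arrays of calves 301 and 303, against 0.117 and 0.167 on their PBS arrays. Both APP arrays were high and both PBS arrays low, with no overlap. The log2 change was 3.94 in calf 301 and 3.60 in calf 303, a mean of 3.77 ± 0.24 (SD, n = 2 calves) or 13.7-fold (95% interval of the log2 change 3.50 to 4.05, limma adjusted p = 6.32e-06). It was the 14th largest rise of the 9155 genes. NR4A1 is represented by a single probe set, so no second probe set could be set beside it.

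NR4A2, the close relative also known as NURR1, was measured by 4 probe sets that did not move together. Probe set Bt.10060.1.S1_at had ratios of 1.77 and 2.19 with APP in calves 301 and 303, against 0.143 and 0.196 with PBS. Its change of 3.56 ± 0.10 (SD, n = 2 calves), or 11.8-fold, was close in size to that of NR4A1 (limma adjusted p over probe sets = 5.10e-05). The intervals of the 2 probe sets overlapped, at 3.29 to 3.82 for this one and 3.47 to 4.08 for NR4A1, and the difference itself was not tested.

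The second NR4A2 probe set, Bt.10060.2.S1_at, had ratios of 1.52 and 1.66 with APP, against 0.451 and 0.356 with PBS. Calf 301 gave a log2 change of 1.75 and calf 303 one of 2.22, a mean of 1.99 ± 0.33 (SD, limma adjusted p = 0.000228). Here too the APP arrays lay well above the PBS arrays.

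The other 2 NR4A2 probe sets showed no such rise. Bt.16434.1.A1_at had ratios of 0.908 and 1.04 with APP, against 0.947 and 1.13 with PBS, and the groups overlapped. Bt.25332.1.A1_at had ratios of 0.923 and 0.826 with APP, against 1.06 and 1.29 with PBS, so that its APP arrays were the lower ones. Their log2 changes were -0.09 (95% interval -0.35 to 0.17, limma adjusted p = 0.565) and -0.42 (-0.76 to -0.08, adjusted p = 0.055, unadjusted p = 0.0225).

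The gene value of NR4A2, a mean over all 4 probe sets, was 1.26 ± 0.03 (SD, n = 2 calves), or 2.39-fold (limma adjusted p = 7.15e-05), and no single probe set lay near it. Over the S1 probe sets alone, a choice made after these values were seen, it was 2.77 (limma adjusted p = 0.000127). The span between its highest and lowest probe set, 3.98 on the log2 scale, was the second widest of the 2913 genes with several probe sets, after CCL3 at 4.02, and the median span was 0.34. CCL3 is named because of this span, after its value was seen.

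Both NR4A2 probe sets that did not pass carry A1 in their names, where Affymetrix writes S for a sense and A for an antisense orientation of the source sequence. The strand and the stretch of transcript that each one reads were not checked. Over the whole array A1 probe sets moved less than S1 probe sets, with a median size of change of 0.21 against 0.32 and rises in 13.0% against 18.5%. Among 1575 genes with both kinds, 66 had a mean rise of at least 2-fold over their S1 probe sets. The A1 probe sets of 29 of these 66 genes (43.9%) rose at least 2-fold too, and those of 5 (7.58%), NR4A2 among them, had a mean change at or below 0.

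**Figure D2:**
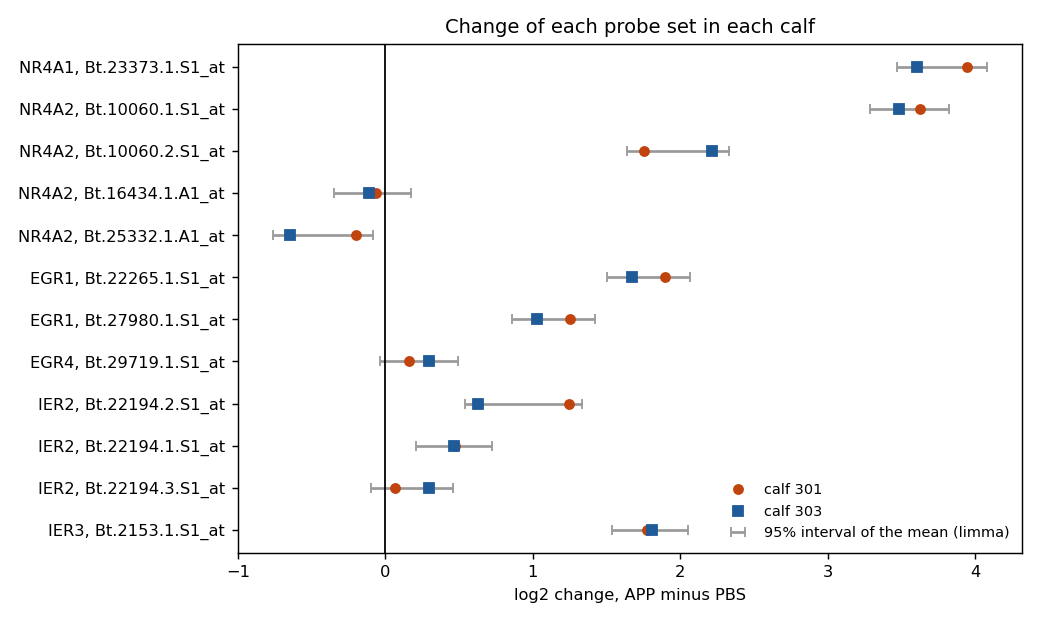
Log2 change, APP minus PBS, of the 12 probe sets of the 6 genes (horizontal axis), with a point for each calf and limma's 95% interval of the mean as a grey bar. The 4 NR4A2 probe sets run from -0.42 to 3.56, while the pair of EGR1 probe sets lies at 1.14 and 1.78.

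Of the zinc finger factors, EGR1, the founding member of its family, had ratios of 1.53 and 1.45 with APP in calves 301 and 303, against 0.513 and 0.569 with PBS (geometric means over 2 probe sets). The groups did not overlap. Its log2 change was 1.58 in calf 301 and 1.35 in calf 303, a mean of 1.46 ± 0.16 (SD, n = 2 calves) or 2.76-fold (95% interval 1.22 to 1.71, limma adjusted p = 5.98e-05).

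Both EGR1 probe sets rose. Bt.22265.1.S1_at had ratios of 1.47 and 1.59 with APP, against 0.395 and 0.499 with PBS. Bt.27980.1.S1_at had 1.59 and 1.32 with APP, against 0.666 and 0.648 with PBS. The changes were 1.78 and 1.14 on the log2 scale, and their intervals (1.50 to 2.07 and 0.86 to 1.42) did not overlap, so the size of the EGR1 rise depended on the probe set.

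EGR4, a member of the family best known from neurons and activated T cells, had ratios of 1.04 and 1.14 with APP in calves 301 and 303, against 0.933 and 0.926 with PBS. The APP arrays were higher, by 0.16 and 0.30 on the log2 scale. The mean change was 0.23 ± 0.10 (SD, n = 2 calves), with a 95% interval of -0.0025 to 0.46, and it did not pass (limma adjusted p = 0.088, unadjusted p = 0.0519). Scaling to the hybridization controls turned it to -0.62.

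Of the IER genes, IER3, also called IEX-1, a short-lived protein that modulates apoptosis under stress, had ratios of 1.47 and 1.78 with APP in calves 301 and 303, against 0.428 and 0.508 with PBS. The groups lay far apart. Its log2 change was 1.78 in calf 301 and 1.81 in calf 303, a mean of 1.79 ± 0.03 (SD, n = 2 calves) or 3.47-fold (95% interval 1.57 to 2.02, limma adjusted p = 2.28e-05). The 2 calves were closer in this change than in that of any other of the 6 genes.

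IER2, a nuclear protein thought to take part in transcriptional control, had ratios of 1.18 and 1.16 with APP in calves 301 and 303, against 0.781 and 0.841 with PBS (geometric means over 3 probe sets). Its change was the smallest among the 5 genes that rose, 0.53 ± 0.09 (SD, n = 2 calves) or 1.44-fold (95% interval 0.30 to 0.76, limma adjusted p = 0.00376). The call was lost without the PBS array of calf 301 (0.48, adjusted p = 0.0816) and without that of calf 303 (0.58, adjusted p = 0.0522), within a range of 0.00363 to 0.0816 over 10 alternative settings. Scaled to the hybridization controls, IER2 stood at -0.32.

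The IER2 probe sets shared a direction but not a size. Bt.22194.2.S1_at had ratios of 1.47 and 1.21 with APP, against 0.617 and 0.781 with PBS, a log2 change of 1.25 in calf 301 and 0.63 in calf 303. Bt.22194.1.S1_at had 1.11 and 1.20 with APP, against 0.800 and 0.872 with PBS, and rose by 0.47 in the mean of the calves. Bt.22194.3.S1_at had 1.01 and 1.07 with APP, against 0.965 and 0.872 with PBS, and its mean of 0.18 did not pass (limma adjusted p = 0.262). Over all 6 genes, 8 of 12 probe sets rose, none fell and 4 did not pass, beside rises in 16.3% of all probe sets. Falls passed for 18.4% of the A1 and 27% of the S1 probe sets of the array. At an unadjusted p under 0.05 the NR4A2 probe set Bt.25332.1.A1_at alone was lower with APP.

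In the order of their changes NR4A1 stood first (3.77), followed by IER3 (1.79), EGR1 (1.46), NR4A2 (1.26), IER2 (0.53) and EGR4 (0.23). Among these gene values the interval of NR4A1 overlapped with no other, although it overlapped with that of the NR4A2 probe set Bt.10060.1.S1_at. Those of neighbours IER3 and EGR1 overlapped, as did those of EGR1 and NR4A2 (1.03 to 1.48) and those of IER2 and EGR4. The difference within each of these pairs was not tested, and an overlap of intervals does not settle it. NR4A1 lay above 99.8% of all genes, IER3 above 98.6%, EGR1 above 97.9%, NR4A2 above 97.3%, IER2 above 88.9% and EGR4 above 71.6%. Because a change near background is compressed, this order is one of measured ratios only. The place of NR4A2 in it rests on averaging its unlike probe sets. Over its S1 probe sets alone NR4A2 stood at 2.77, and with its most variable probe set at 3.56, both above IER3 at 1.79.

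**Figure D3:**
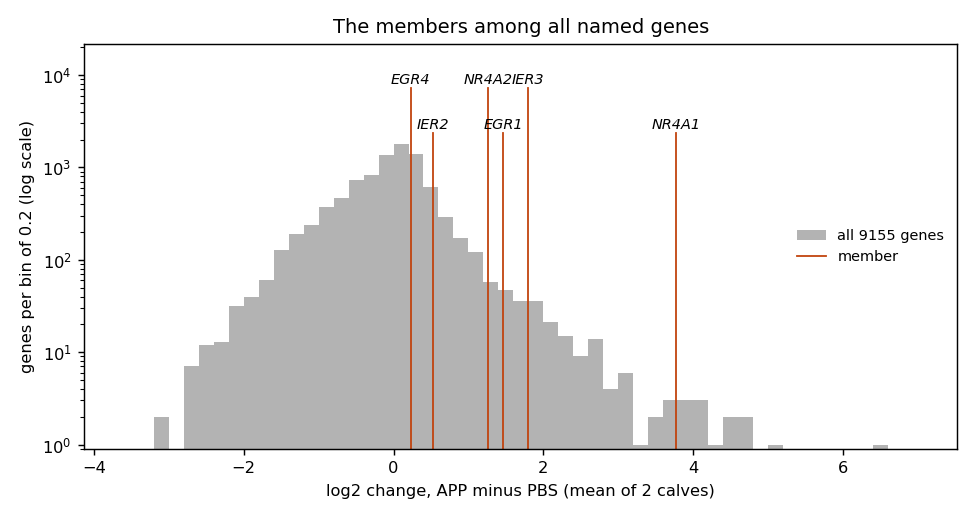
Histogram of the mean log2 change, APP minus PBS, of all 9155 named genes in bins of 0.2 (vertical axis, log scale), with a line for each of the 6 genes. EGR4 at 0.23 lies inside the bulk, IER2 at 0.53 on its shoulder, and NR4A1 at 3.77 in the sparse right tail.

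In size, the change was larger in calf 301 for 4 of them (NR4A1, NR4A2, EGR1 and IER2) and larger in calf 303 for EGR4 and IER3. The widest gap was that of NR4A1, with calf 303 0.34 below calf 301 on the log2 scale, against a median gap of 0.15 in size over all genes. With 1 array per calf and treatment, a difference in response between the calves could not be tested.

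Apart from APP, NR4A1 was 0.34 higher in calf 303 than in calf 301 (unadjusted p = 0.0202, limma adjusted p = 0.203) and IER3 was 0.26 higher (unadjusted p = 0.0273, adjusted p = 0.227). None of the 6 genes passed in limma's comparison of calf 303 with calf 301 at an adjusted p under 0.05, beside 1.7% of all genes. The share of all genes at an unadjusted p under 0.05 was not counted. Whether 2 of 6 at that threshold is unusual thus cannot be judged.

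The 7 hybridization control probe sets (bioB, bioC and bioD), which read labelled RNA added to the hybridization mix in the standard Affymetrix procedure, averaged 0.28 and 0.54 on the log2 scale with APP in calves 301 and 303, against -0.50 and -0.39 with PBS. They were thus 0.85 higher with APP in the mean. The shift differed between them, from 0.57 in calf 301 and 0.69 in calf 303 (AFFX-BioDn-3_at) to 0.95 and 1.08 (AFFX-BioB-5_at). Other control probe sets were not used, so the scaled values depend on this choice of controls. When every array was scaled to them, the median change of all genes moved from 0.01 to -0.84, and 3.26% of genes rose while 89.8% fell. On that scale NR4A1 stood at 2.92, IER3 at 0.94, EGR1 at 0.61 and NR4A2 at 0.41, and these 4 of the 6 were called as rises, with IER2 and EGR4 as falls. The standard error was the same for every gene in that fit (0.15), so it gives no gene its own spread.

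**Figure D4:**
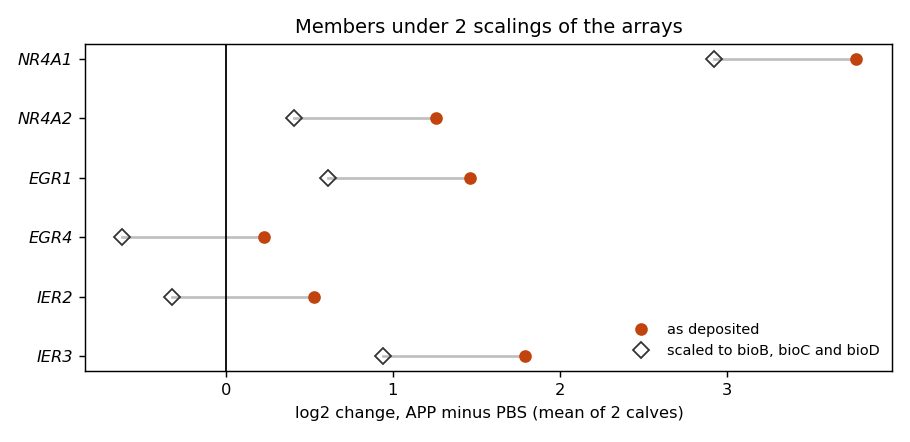
Mean log2 change, APP minus PBS, of the 6 genes as deposited (filled circles) and after scaling each array to the hybridization controls (open diamonds). All points move left by 0.85, which takes IER2 and EGR4 below 0 and leaves NR4A1 at 2.92.

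Other immediate early genes, induced early by growth factor or antigen receptor signals, mostly rose. Of 29 measured, 25 rose, beside 23% of all genes, and 4 did not pass. None fell at an adjusted p under 0.05 in limma's test, beside 29.7% of all genes, nor at an unadjusted one. The median change of the 29 was 1.28, against 0.01 over all genes, or 0.43 when scaled to the hybridization controls. ATF3, a stress-induced transcription factor, rose by 3.71, DUSP1, a phosphatase that switches off MAP kinases, by 2.84, FOS by 2.75 and the early activation antigen CD69 by 2.72. FOS, a subunit of the transcription factor AP-1, had probe sets at 1.74 and 3.75. The genes that did not pass, named after their values were seen, were FOSL2 (0.26), KLF4 (0.10), CCN1 (0.06) and CCN2 (-0.05). Some of the rises stood below 0 on the scale of the hybridization controls, such as BTG1 (-0.55) and KLF10 (-0.32), named in the same way.

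Factors upstream of immediate early genes had rises that passed for 7 of the 13 measured and falls for 4, beside 23% and 29.7% of all genes. Their median change of 0.30 turned to -0.55 under hybridization control scaling. SRF, the serum response factor that binds the EGR1 promoter, rose by 0.64 in calf 301 and 0.70 in calf 303 (limma adjusted p = 0.00113). RPS6KA3, a kinase activated by ERK, rose by 1.14, and NFATC1, a calcium-dependent factor of T cells, by 0.80. The falls included RPS6KA5, the kinase MSK1 that phosphorylates CREB and histone H3 (-1.39), and MAPK3, the kinase ERK1 (-0.71). Scaled to the hybridization controls, SRF stood at -0.18, NFATC1 at -0.05 and RPS6KA3 at 0.29.

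Partners of the NR4A and EGR proteins were fewer. NAB2, a corepressor that binds EGR1 and is itself induced by it, had log2 ratios of 0.99 and 0.32 with APP in calves 301 and 303, against -0.49 and -0.81 with PBS, with no overlap. It rose by 1.31 ± 0.25 (SD, n = 2 calves, limma adjusted p = 0.000134), with 1.24 and 1.37 for its probe sets. NAB1 was not analysed here. Rises passed for 3 and falls for 2 of the 8 measured partners and corepressors, beside 23% and 29.7% of all genes, with a median of 0.01, or -0.84 on the scale of the hybridization controls. RXRA, the retinoid receptor that pairs with NR4A1 and NR4A2, rose by 0.56, while the corepressors NCOR1 (-0.49) and TRIM28 (-0.46) fell. The 5 probe sets of NCOR1 ran from -0.89 to 0.05. On the scale of the hybridization controls RXRA stood at -0.30.

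Genes reported downstream of EGR factors, mostly in mouse T cells, rose in 7 of 12 measured cases and fell in 2, beside 23% and 29.7% of all genes, with a median of 0.58, or -0.27 when scaled to the hybridization controls. CDKN1A, an inhibitor of cyclin-dependent kinases, rose by 4.69, the T cell growth factor IL2 by 4.16 (3.16 in calf 301 and 5.17 in calf 303) and TNF by 2.63. DGKA, a kinase that removes diacylglycerol and so dampens receptor signalling, fell by 1.54. Among 9 measured genes reported downstream of NR4A factors, rises passed for 5 and falls for 1, beside the same shares of all genes, with a median of 0.35, or -0.50 when scaled so. ENTPD1, the ectonucleotidase CD39, rose by 1.14, the checkpoint receptor PDCD1 by 0.64 and the AP-1 family factor BATF by 0.59, while TOX, a factor of exhausted T cells in the mouse, fell by 1.08. With the hybridization controls as the scale PDCD1 stood at -0.21 and BATF at -0.26.

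**Figure D5:**
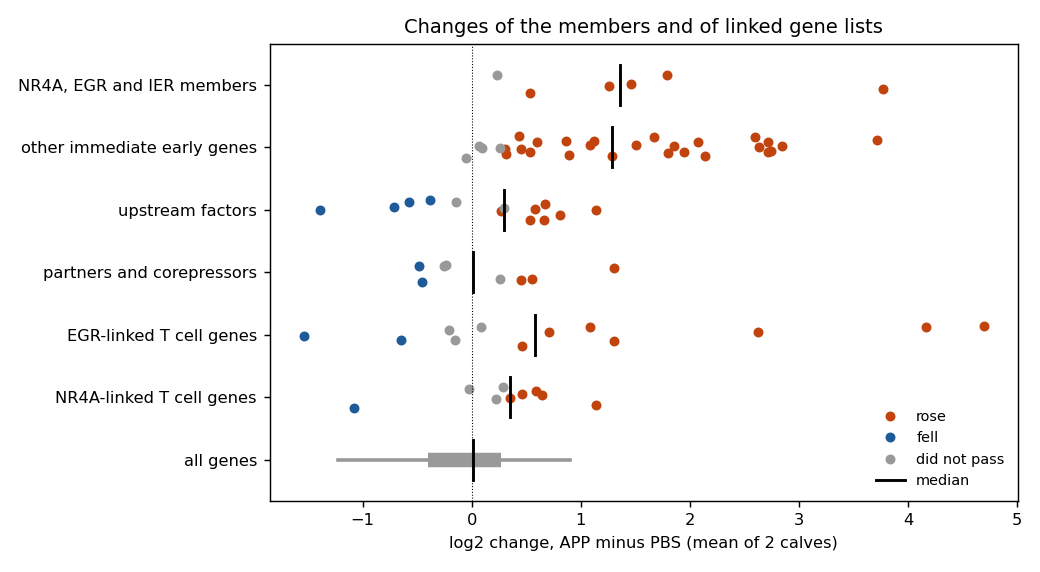
Mean log2 change, APP minus PBS, of each gene in the lists (horizontal axis), coloured by whether it rose, fell or did not pass. Black bars are medians, and the grey bar for all genes spans the 25th to 75th percentile, with a line from the 5th to the 95th. The medians of the members (1.36) and of the other immediate early genes (1.28) lie to the right of those of the remaining lists. Single genes overlap between lists, and the EGR-linked list reaches furthest right, at 4.69 (CDKN1A).

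Genes with the most similar profile were found by Euclidean distance between log2 values centred on each gene's mean, over the 4 arrays and all named genes. With 4 arrays in 2 pairs, such likeness describes little beyond a matching size of change in each calf. NR4A1 was nearest to CRTAM, a receptor of activated cytotoxic lymphocytes (distance 0.08, change 3.81), SLC29A1, a nucleoside transporter (0.14, change 3.69), and POU2AF1, a coactivator of octamer factors (0.22, change 3.81). EGR1 was nearest to FMNL3, a formin (0.09), AOC2, an amine oxidase (0.09), and UBE2S, a ubiquitin-conjugating enzyme (0.10). IER3 lay nearest to PUS7, a pseudouridine synthase (0.09), MTSS1, an actin-binding protein (0.13), and JUN, the partner of FOS in AP-1 (0.13).

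The NR4A2 gene mean was nearest to SMCO4 (0.03), the ribosome assembly factor WDR74 (0.07) and MANF, a secreted protein of the endoplasmic reticulum stress response (0.08), a likeness that rests on averaging its unlike probe sets. IER2 was nearest to the kinase AKT2 (0.02), the NF-kappaB regulator BCL3 (0.03) and the phosphatase CTDNEP1 (0.03). Among the 6 genes themselves the closest pair was EGR1 and the gene mean of NR4A2 (0.25), and the most distant was NR4A1 and EGR4 (3.56).

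The protein-coding genes next to each member in the RefSeq gene order of the bovine assembly ARS-UCD2.0 were looked up after the members' values were known. Of 12 neighbours 7 were measured, of which 4 rose, 2 fell and 1 did not pass, beside 23% of all genes that rose and 29.7% that fell. Beside NR4A1, TAMALIN, a scaffold protein, rose by 1.59, and beside NR4A2 the mitochondrial enzyme GPD2 rose by 1.89. ETF1, the translation release factor next to EGR1, rose by 1.61, while REEP2 on its other side stood at 0.29 (limma adjusted p = 0.0539). Next to IER2, CACNA1A rose by 0.30 over 8 probe sets and STX10 fell by 0.69, and next to IER3, FLOT1 fell by 1.42. CACNA1A stood at -0.56 on the scale of the hybridization controls.

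Some markers of other blood cells that could remain in the sort differed with APP, beside 23% of all genes that rose and 29.7% that fell. All 3 measured B cell markers fell (-1.04 to -0.56). The 2 probe sets of MS4A1, one of these, stood at -1.08 and -0.04, and the latter did not pass. Of 11 monocyte and dendritic cell markers 3 rose (CD68 by 2.31, CD14 and FCGR1A by 0.46 each). Among these 11 there were 0 falls, or 1 at an unadjusted p under 0.05 in limma's test. CD14 and FCGR1A stood at -0.39 on the scale of the hybridization controls. The mean log2 ratio of the monocyte list was 0.12 and 0.14 with APP in calves 301 and 303, against -0.22 and -0.15 with PBS. Without CD68 the mean of the other 10 was 0.07 and 0.01 with APP, against -0.11 and -0.04 with PBS. The median change of the 11 was 0.13, or -0.72 on the scale of the hybridization controls. Of 3 alpha beta T cell markers CD8A rose (1.08), CD8B fell (-0.64) and CD4 stood at 0.20 without passing, and 3 natural killer cell markers lay between -0.10 and 0.07. Of 10 genes listed for gamma delta T cells 5 fell and 1 rose (CD5, 0.62), with a median of -0.21, or -1.06 on that scale. CD5 and the CD3 chains in this list are shared by other T cells. CD163L1 (-1.08) and WC1.3 (-0.86) were among the falls, while TRGC4 (-0.11) and TRGC6 (-0.06) did not pass. Since levels are lost in these values, neither the sorted cell type nor the absence of others could be checked against markers, and the part of such cells in the changes of the NR4A, EGR and IER genes was not tested.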

How the data were processed

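The 4 arrays (Affymetrix bovine, 2 with APP and 2 with PBS) were read from 1 table. Probe sets were summarised with RMA, per the submitters' processing notes, with no version given. The deposited values are linear ratios of signal to each probe set's median over the 4 arrays, a unit found from the values: the mean of the middle pair of values per probe set lay between 0.986 and 1.00 for the central 98% of probe sets. Arrays have no depth, so precision is set by how few there are.

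Ratios were put on the log2 scale without further normalization. All 112 control probe sets were left out. Gene names came from the platform annotation, updated by Entrez identifier through RefSeq (13263 of 13292 probe sets with 1 gene). A further 86 probe sets had several genes and 10638 had none. Log2 values of a gene's probe sets were averaged.

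APP was compared with PBS with limma 3.58.1 (R 4.3.3, lmFit and eBayes, two-sided, Benjamini-Hochberg over all features, 1 residual degree of freedom), with the calf as a block, since each animal appears under both treatments in the sample titles. The difference between calves correlated between the treatments with r = 0.514 across probe sets. The method was tested on simulated probe set values, with normal noise drawn from the spread fitted to these data, and not on gene means. That noise was independent between probe sets and held no shift shared by a whole array, such as that of the hybridization controls. Its outcome is not given here, so it does not vouch for the call of any member. An exact permutation test of 2 against 2 arrays cannot go below p = 0.333 and was not used.

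The members and gene lists were chosen with earlier results of these data known. Genes named were all members, the 4 largest changes per list, NAB2 and SRF, and the 3 nearest profiles per member that passed. List symbols without a probe set were not analysed here. Promoter and protein sequences were not used here. Alternatives were no block, equal array medians, scaling to hybridization controls, robust eBayes, the most variable probe set per gene, S1 probe sets alone and leaving out each array.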

Additional observations from a re-analysis of the deposited data

Results flagged for a closer look

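The hybridization control probe sets, which enter none of the comparisons, had a mean log2 value 0.852 higher on the APP arrays than on the PBS arrays. Why they differ was not tested. Scaled to them, NR4A1, NR4A2, EGR1 and IER3 stayed above 0, and IER2 and EGR4 did not. With 2 arrays per group, no search for single outlying arrays was made.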

How the results depend on the processing

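As deposited, 9591 probe sets and 4821 genes passed for APP, 896 genes changed at least 2-fold in both calves, and 156 genes passed between calves. Scaled to the hybridization controls, these were 22391, 8522, 2966 and 919, rises made up 3.5% of gene calls (43.6% as deposited), EGR4 reversed to -0.62 and IER2 to -0.32. Without the replicate block, 6746 probe sets and 3560 genes passed, the same 5 members among them, so the pairing by calf changed no call of a member. Genes passing between calves numbered 82 with equal array medians, 76 with the most variable probe set per gene and 58 with S1 probe sets only, the last added after the data were seen. Leaving out 1 array in unblocked fits gave 3610 to 6687 probe sets, 2050 to 3304 genes and 4 to 5 members. Against the unblocked fit of all 4 arrays (3560), gene counts moved by over 1.5 times without PBS 301 (2310) and PBS 303 (2050), not without APP 301 (2835) or APP 303 (3304). IER2 lost its call without PBS 301 (0.48) or PBS 303 (0.58), and in probe set Bt.22194.3.S1_at alone (0.18). NR4A2 reversed in Bt.16434.1.A1_at (-0.087) and Bt.25332.1.A1_at (-0.42). NR4A1, NR4A2, EGR1 and IER3 passed as rises in all 10 settings, with lowest changes of 2.92, 0.41, 0.61 and 0.94. With levels lost, changes near background could not be judged.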
